A study of Arabidopsis thaliana with 21 samples.

Results

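The PUB genes of Arabidopsis thaliana encode plant U-box proteins, and 10 of them were followed gene by gene across 7 fixation tubes from 1 aircraft flight. Members were the genes whose RefSeq symbol is PUB followed by digits and that had a probe set paired with exactly 1 gene. These were 10 of the 16542 genes on single-gene probe sets: PUB15 (AT5G42340), PUB19 (AT1G60190), PUB22 (AT3G52450), PUB23 (AT2G35930), PUB24 (AT3G11840), PUB25 (AT3G19380), PUB26 (AT1G49780), PUB39 (AT3G47820), PUB43 (AT1G76390) and PUB54 (AT1G01680). Each of the 10 had 1 such probe set. RefSeq holds 22 PUB symbols, and the other 12 were not analysed here. Positions are given as locus identifiers only, because the annotation and the authors' processing name different assemblies (TAIR10.1 and TAIR10).

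U-box proteins are E3 ubiquitin ligases: through the U-box domain they bring activated ubiquitin to a protein substrate. Ubiquitin chains added this way often send the substrate to the proteasome. In Arabidopsis, PUB22, PUB23 and PUB24 act together to dampen immune signalling that follows the recognition of microbial patterns, PUB22, PUB23 and PUB19 act in the drought or abscisic acid response, and PUB25 and PUB26 are ligases for the immune kinase BIK1.

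All samples were whole roots of 12-day-old wild-type seedlings of the Wassilewskija (WS) ecotype, grown at 19 °C in 24 h light and carried on a C-9 aircraft, which in each parabola passes from increased gravity into near weightlessness. The seedlings were held in hand-operated fixation tubes that release the RNA preservative RNAlater. The 7 groups of 3 arrays were fixed in level flight 1 min before parabola 1, at its start (parabola 1 start), midway through it in 2 tubes (midpoint tube A and midpoint tube B), at its end (parabola 1 end), and after parabola 3 and parabola 10 (parabola 3 end, parabola 10 end). The 3 arrays of a group were root pools from a single tube, so p-values measure the spread between pools of a tube, and stage and tube cannot be told apart. Tubes of the same stage could be compared only at the midpoint.

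Values are log2 expression values made by the authors with RMA, which brings all arrays to nearly the same distribution. The table held 38408 probe sets, array medians lay between 2.92 and 3.04, and correlations between arrays lay between 0.971 and 0.988. Tests were limma's, in 1 fit over the 21 arrays, with p-values adjusted over 17481 named probe sets within each comparison. A gene is called where its adjusted p was below 0.05, and "fell", "rose", "lower" and "higher" describe tubes with different roots in them, never the same roots over time. In bulk roots, fewer cells of a type and less RNA per cell cannot be told apart. The 3 arrays per tube limit the precision. Where all arrays of a tube are said to lie below or above those of another, this only describes the values. The share of all named probe sets separated in this way is not given here.

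Of the 10 genes, PUB22, PUB23, PUB24 and PUB43 lay above the array median on all 21 arrays. The other 6 lay below it on all 21 arrays, and whether they were above background was not tested. Over the 7 tubes, limma's F test called PUB22 (adjusted p = 8.26e-05), PUB23 (adjusted p = 1.36e-04), PUB24 (adjusted p = 0.00119) and PUB43 (adjusted p = 0.0275). These were 4 of 10 members, while the same test called 7.91% of all named probe sets. All 4 were the members above the array median. None of the 10 was called higher than level flight in any tube. Of the 17481 named probe sets, 3 (midpoint tube B) to 289 (midpoint tube A) were called higher.

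PUB22 had its highest values in level flight. On the log2 scale it measured 7.71, 7.84 and 8.0 in level flight, 6.83, 7.11 and 6.77 at parabola 1 start, 6.40, 6.04 and 6.53 in midpoint tube A, and 7.31, 7.21 and 6.93 in midpoint tube B. All arrays of the start and the midpoint lay below all level flight arrays, and tube A lay lowest. The values were 7.03, 6.85 and 6.96 at parabola 1 end, 6.87, 7.26 and 6.76 at parabola 3 end, and 7.25, 7.23 and 7.05 at parabola 10 end. No later array reached the lowest level flight array.

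PUB23, a close homologue of PUB22, measured 9.04, 8.92 and 8.87 in level flight. It then measured 8.33, 8.32 and 8.32 at parabola 1 start, 7.80, 7.93 and 8.14 in midpoint tube A, and 8.38, 8.75 and 8.24 in midpoint tube B. These 9 arrays were all below level flight. The later values were 8.97, 8.81 and 8.76 at parabola 1 end, 8.79, 9.10 and 8.88 at parabola 3 end, and 8.58, 8.45 and 8.57 at parabola 10 end. The ends of parabolas 1 and 3 thus overlapped level flight, and the end of parabola 10 did not. Whether the probes for PUB22 and PUB23 also bind each other's transcript was not tested.

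PUB24 measured 7.24, 7.14 and 7.35 in level flight, 6.33, 6.01 and 6.23 at parabola 1 start, and 6.23, 6.04 and 6.96 in midpoint tube A. The third tube A array stood apart from the other two, and the SD of this tube (0.49) was the highest of any tube for these 4 genes. Midpoint tube B gave 7.03, 7.44 and 7.06, parabola 1 end 7.61, 7.09 and 7.06, parabola 3 end 7.09, 7.41 and 7.15, and parabola 10 end 6.68, 6.88 and 6.61. Tube B and the ends of parabolas 1 and 3 overlapped level flight, while the start, tube A and the end of parabola 10 lay wholly below it.

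PUB43, a relative of the ligase gene SAUL1, varied less. It measured 5.81, 5.92 and 5.91 in level flight, 5.52, 5.69 and 5.45 at parabola 1 start, 5.16, 5.12 and 5.51 in midpoint tube A and 5.67, 5.68 and 5.66 in midpoint tube B. At parabola 1 end, parabola 3 end and parabola 10 end it measured 5.62, 5.55 and 5.60, then 5.35, 5.65 and 5.65, then 5.54, 5.61 and 5.51. All 18 later arrays lay below the lowest level flight array, and the lowest of them were replicates 1 and 2 of tube A and replicate 1 of parabola 3 end.

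**Figure D1:**
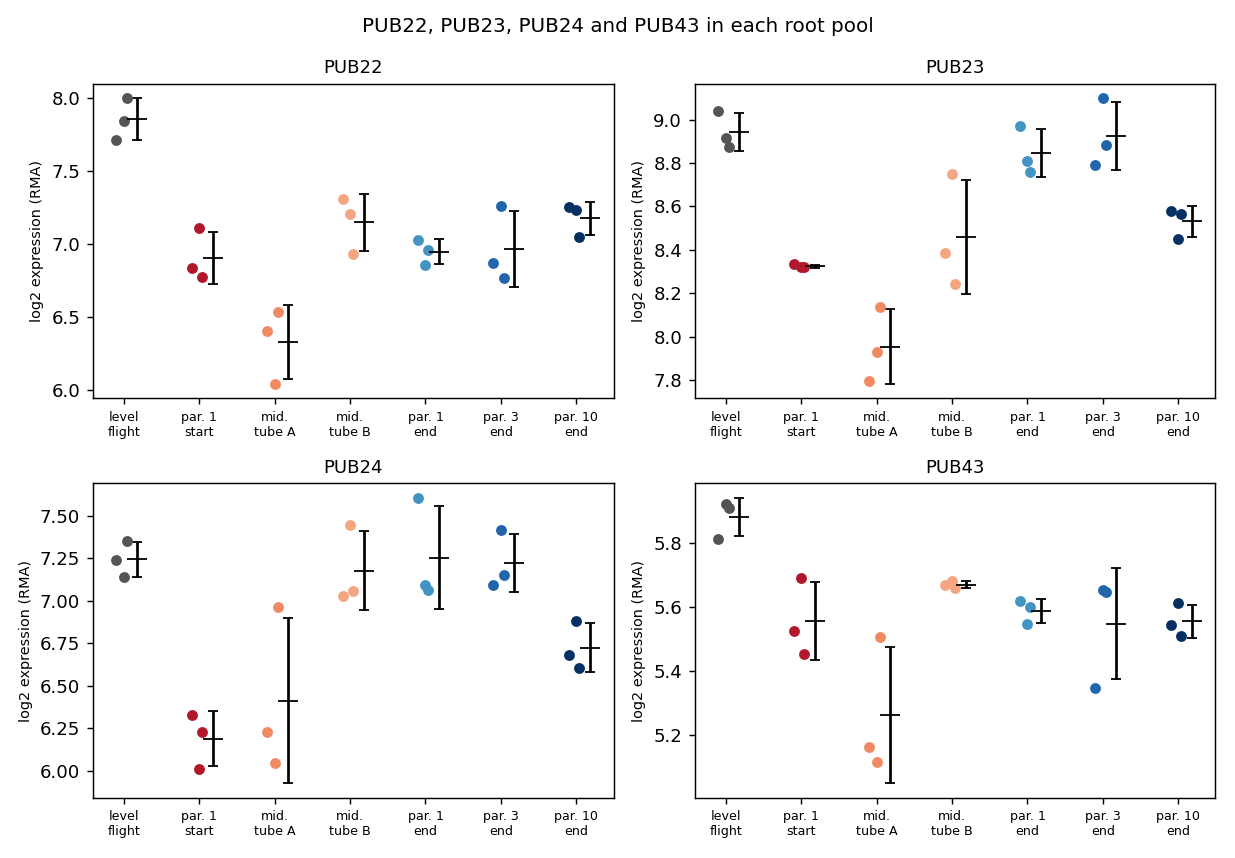
Log2 expression (RMA) of PUB22, PUB23, PUB24 and PUB43 on the vertical axes, with a separate scale for each gene, for the 7 tubes on the horizontal axes. Points are the 3 arrays of a tube, and the bars give their mean and SD. Level flight holds the highest PUB22 and PUB43 values, and tube A or parabola 1 start holds the lowest values of each gene.

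The first comparison asked which of these genes differed between the very start of parabola 1 and level flight. PUB24 fell by 1.06 (SE 0.19, 95% interval -1.45 to -0.66, adjusted p = 0.00198), which is 2.08-fold. PUB22 fell by 0.95 (SE 0.15, interval -1.25 to -0.64, adjusted p = 5.80e-04), or 1.93-fold, and averaged 6.91 ± 0.18 at the start and 7.85 ± 0.14 in level flight (SD, n = 3 each). PUB23 fell by 0.62 (SE 0.12, interval -0.88 to -0.36, adjusted p = 0.00485), or 1.54-fold. The 3 genes that fell are the trio that acts in pattern-triggered immunity, and PUB43 differed by -0.33 (adjusted p = 0.116). Thus 3 of 10 members were lower and none higher, against 2.76% of all named probe sets called lower and 246 of 17481 called higher. The median of the 10 was -0.18 with 7 below 0, beside a median of 0.01 and 48.4% below 0 over all named probe sets.

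In midpoint tube A, 5 of 10 members fell against level flight, where 3.48% of all named probe sets were called lower. PUB22 fell by 1.52 (SE 0.15, interval -1.83 to -1.22, adjusted p = 6.20e-06), the greatest difference of any member against level flight, 2.88-fold. PUB22 averaged 6.33 ± 0.25 in tube A and 7.85 ± 0.14 in level flight (SD, n = 3 each). PUB23 fell by 0.99 (SE 0.12, interval -1.25 to -0.73, adjusted p = 5.73e-05), or 1.98-fold, PUB24 by 0.83 (SE 0.19, interval -1.23 to -0.44, adjusted p = 0.0106), or 1.78-fold, and PUB43 by 0.62 (SE 0.11, interval -0.85 to -0.39, adjusted p = 0.00145), or 1.54-fold. All 4 genes lay lower on every tube A array than on any level flight array. How many of all named probe sets did so is not given here. PUB39, a dim member, fell by 0.46 (adjusted p = 0.0272). The median of the 10 was -0.27 with 7 below 0, beside a median of 0.01 and 46.9% below 0 over all named probe sets. With only the 6 arrays compared, PUB24 (adjusted p = 0.0758) and PUB39 were no longer called. PUB24 was also not called without tube A replicate 1 (adjusted p = 0.0559) or replicate 2 (adjusted p = 0.0837).

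Tube B was fixed at the same midpoint by another crew member, and no member passed in limma's test against level flight. PUB22 differed by -0.70 (interval -1.01 to -0.40, adjusted p = 0.136) and PUB23 by -0.48 (interval -0.74 to -0.23, adjusted p = 0.213). These were the 2 of 10 members with an unadjusted p under 0.05. Both lay below level flight on all 3 arrays, as did PUB43 and PUB39, whose unadjusted p was not under 0.05. PUB24 differed by -0.07 (interval -0.46 to 0.33, adjusted p = 0.977) and PUB43 by -0.21 (adjusted p = 0.658). Over all named probe sets 0.0286% were called lower in tube B, while 1427 had an unadjusted p under 0.05. In either direction, 8 probe sets were called. The median of the 10 members was -0.14 with 8 below 0, beside a median of 0.01 and 48.4% below 0 over all named probe sets. Without tube B replicate 2, PUB23 was called lower (-0.63, adjusted p = 0.0481).

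The direct comparison of tubes A and B at 1 stage shows a difference between tubes without a difference in stage. Here 3 of 10 members were lower in tube A and none higher, against 1.11% of all named probe sets called lower. Of the 17481 named probe sets, 51 were called higher. PUB22 averaged 6.33 ± 0.25 in tube A, against 7.15 ± 0.20 in tube B (SD, n = 3 each), a difference of -0.82 (SE 0.15, interval -1.13 to -0.52, adjusted p = 0.00753). PUB24 averaged 6.41 ± 0.49 in tube A and 7.18 ± 0.23 in tube B, a difference of -0.76 (interval -1.16 to -0.37, adjusted p = 0.0472). PUB23 averaged 7.95 ± 0.17 in tube A and 8.46 ± 0.26 in tube B, a difference of -0.50 (interval -0.76 to -0.25, adjusted p = 0.0458). All tube A arrays lay below all tube B arrays for these 3 genes. PUB43 differed by -0.41 (adjusted p = 0.0716). The median of the 10 was -0.15 with 7 below 0, beside a median of 0.01 and 48.6% below 0 over all named probe sets. The calls of PUB23 and PUB24 sat close to the threshold: with the replicate number as a block their adjusted p was 0.0605 and 0.0677, and they were lost in 16 and 18 of the 21 fits that left out 1 array. With only the 6 arrays compared, none of the 3 was called (adjusted p = 0.141 for PUB22), and PUB22 was also not called without tube A replicate 2 (adjusted p = 0.0543) or tube B replicate 2 (adjusted p = 0.0544).

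PUB22 was the 1 member still called at the end of parabola 1, where it fell by 0.91 (SE 0.15, interval -1.21 to -0.60, adjusted p = 0.00321), or 1.87-fold against level flight. Of all named probe sets, 0.864% were called lower. PUB23 differed by -0.10 (interval -0.36 to 0.16, adjusted p = 0.801), PUB24 by 0.01 (interval -0.38 to 0.41, adjusted p = 0.988) and PUB43 by -0.29 (adjusted p = 0.232). The values of PUB23 and PUB24 overlapped level flight, and those of PUB22 did not. Whether the difference from level flight was itself unequal between PUB22 and the other genes was not tested. Levels of different probe sets are not comparable.

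At the end of parabola 3, PUB22 fell by 0.89 (SE 0.15, interval -1.19 to -0.58, adjusted p = 0.00634), or 1.85-fold, where 0.332% of all named probe sets were called lower. PUB23 (-0.02, interval -0.28 to 0.24, adjusted p = 0.978) and PUB24 (-0.02, interval -0.42 to 0.37, adjusted p = 0.982) were near their level flight means, and PUB43 differed by -0.33 (adjusted p = 0.227). Without parabola 3 end replicate 3, PUB22 differed by -0.79 and was not called (adjusted p = 0.0568).

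At the end of parabola 10, PUB22 fell by 0.68 (SE 0.15, interval -0.98 to -0.37, adjusted p = 0.0254), or 1.60-fold, beside 0.972% of all named probe sets called lower. PUB24 differed by -0.52 (interval -0.92 to -0.12, adjusted p = 0.187), PUB23 by -0.41 (interval -0.67 to -0.15, adjusted p = 0.102) and PUB43 by -0.33 (adjusted p = 0.149), and each lay below level flight on all 3 arrays without being called. All 10 members had values below 0 at this stage, with a median of -0.20, beside a median of -0.0028 and 50.6% below 0 over all named probe sets. The dim members PUB54 (-0.03), PUB25 (-0.06), PUB26 (-0.07), PUB19 (-0.08) and PUB15 (-0.09) lay close to 0. Of these, PUB54, PUB25 and PUB15 changed sign in at least 1 recomputed fit. The members share the same arrays, so the count below 0 carries no test. The PUB22 call was lost without level flight replicate 2 or 3 (adjusted p = 0.0683 and 0.0952), and without any of the 3 arrays of parabola 10 end (adjusted p from 0.0507 to 0.111). It was also lost when all probe sets were tested, named or not (adjusted p = 0.0509). The member medians at the ends of parabolas 1 and 3 were -0.08 and -0.02, with 6 of 10 below 0 at each, beside medians of 0.03 and 0.01 over all named probe sets.

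These 6 comparisons share the level flight arrays, so a high or low set of level flight pools moves all of them together. A further fit took the tube as a random block, with a within-tube correlation of 0.221 that was estimated from tubes A and B. It held tubes A and B as a single midpoint stage, whose difference from level flight is not given here. In that fit no member was called at parabola 1 start (PUB22 adjusted p = 0.153, PUB24 0.161, PUB23 0.268). None was called at the ends of parabola 1 (PUB22 0.441), parabola 3 (PUB22 0.791) and parabola 10 (PUB22 0.720). A form of this fit with all 7 tube means was chosen after seeing the data. It kept PUB22 (adjusted p = 0.00105), PUB23 (0.00515) and PUB43 (0.0474) in tube A against level flight, and PUB22 at parabola 1 start (0.0292). It called no member between tubes A and B. The correlation was estimated from these same tubes, so the fit is no separate check of the calls between them.

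**Figure D2:**
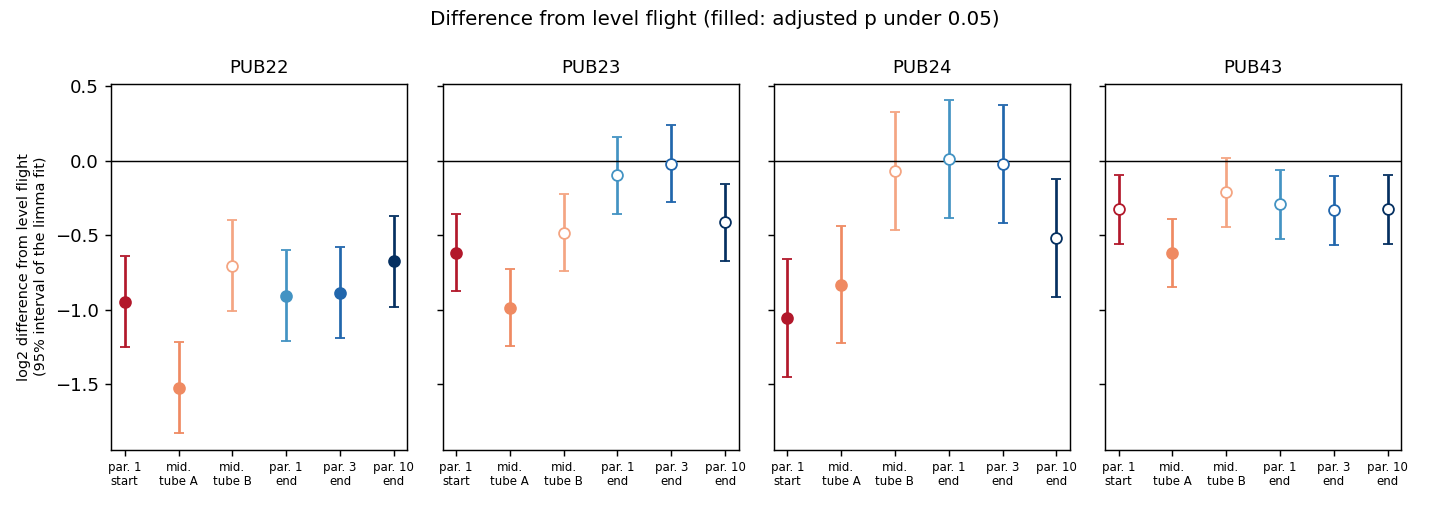
Log2 difference from level flight (vertical axis) of PUB22, PUB23, PUB24 and PUB43 in the 6 later tubes (horizontal axis), with 95% intervals of the limma fit. Filled points have an adjusted p under 0.05; PUB22 is filled in 5 of the 6 tubes, PUB23 and PUB24 in parabola 1 start and tube A, and PUB43 in tube A.

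Some members also differed between the later tubes, without level flight in the comparison. PUB24 was higher at parabola 1 end than at parabola 1 start by 1.07 (interval 0.67 to 1.46, adjusted p = 0.00818), the 1 member of 10 called, beside 0.429% of named probe sets called higher. It averaged 7.25 ± 0.31 at the end and 6.19 ± 0.16 at the start (SD, n = 3 each), and the arrays did not overlap. PUB24 was also higher in midpoint tube B than at parabola 1 start by 0.99 (adjusted p = 0.0149), where 0.635% of named probe sets were called higher. At parabola 3 end against parabola 1 start, PUB24 (1.03, adjusted p = 0.00599) and PUB23 (0.60, adjusted p = 0.0136) were higher, 2 of 10 members beside 1.26% of named probe sets. Tube B and parabola 3 end arrays of PUB24 all lay above its parabola 1 start arrays. At parabola 10 end against parabola 1 start, limma called none of the 10 members, of which 2 had an unadjusted p under 0.05, although 463 named probe sets were called. Leaving out 1 array could end each of these 4 calls: the 3 of PUB24 without parabola 1 start replicate 2 (parabola 1 end and tube B), parabola 1 start replicate 3 or tube B replicate 2 (tube B), parabola 1 end replicate 1 (parabola 1 end) or parabola 3 end replicate 2 (parabola 3 end), and that of PUB23 without parabola 1 start replicate 2 or 3 or parabola 3 end replicate 2.

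Against midpoint tube A, members called at the ends of the parabolas were all higher. At parabola 1 end these were PUB23 (0.89, adjusted p = 8.54e-04), PUB24 (0.84, adjusted p = 0.0199) and PUB22 (0.62, adjusted p = 0.0263), beside 1.39% of named probe sets called higher. At parabola 3 end they were PUB23 (0.97, adjusted p = 1.64e-04), PUB24 (0.81, adjusted p = 0.0202) and PUB22 (0.64, adjusted p = 0.0181), beside 2.19% of named probe sets. At parabola 10 end they were PUB22 (0.85, adjusted p = 0.00144) and PUB23 (0.58, adjusted p = 0.0072), beside 2.79% of named probe sets. These 3 comparisons share the tube A arrays. For each of these calls, all arrays of the parabola end lay above all arrays of tube A. The calls of PUB22 and PUB24 at the ends of parabolas 1 and 3 were lost without tube A replicate 2. Those of PUB24 were also lost without tube A replicate 1, parabola 1 end replicate 1 or parabola 3 end replicate 2, and those of PUB22 without tube A replicate 1 or parabola 1 end replicate 1 or 3 (parabola 1 end) or parabola 3 end replicate 2 (parabola 3 end). The 3 calls of PUB23 and that of PUB22 at parabola 10 end were kept in every fit that left out 1 array. With the tube as a random block (7 tube means, chosen after seeing the data), 1 of all 12 calls between later tubes other than tube A against tube B was kept, PUB23 at parabola 3 end against tube A (adjusted p = 0.0141).

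Over all 21 pairs of tubes, 26 of 210 member and pair combinations were called, beside 1.68% of all named probe set and pair combinations in either direction. The count was 5 with the tube as a random block (7 tube means) and 17 without tube A replicate 2. PUB22 was called in 9 pairs, PUB24 in 8, PUB23 in 7, and PUB43 and PUB39 in 1 each, while PUB15, PUB19, PUB25, PUB26 and PUB54 were called in none. By tube mean, PUB22 ran from 7.85 in level flight through 7.18 at parabola 10 end, 7.15 in tube B, 6.96 at parabola 3 end, 6.95 at parabola 1 end and 6.91 at parabola 1 start to 6.33 in tube A, and only the step between parabola 10 end and level flight was called between neighbours. PUB23 ran from 8.94 in level flight through 8.92 at parabola 3 end, 8.85 at parabola 1 end, 8.53 at parabola 10 end, 8.46 in tube B and 8.32 at parabola 1 start to 7.95 in tube A. PUB24 ran from 7.25 at parabola 1 end through 7.24 in level flight, 7.22 at parabola 3 end, 7.18 in tube B, 6.72 at parabola 10 end and 6.41 in tube A to 6.19 at parabola 1 start. PUB43 ran from 5.88 in level flight through 5.67 in tube B and 5.59 at parabola 1 end to 5.55 at each of parabola 1 start, parabola 10 end and parabola 3 end, and 5.26 in tube A. No neighbours in the orders of PUB23, PUB24 and PUB43 differed past the threshold.

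The remaining 6 members had low values throughout. PUB39 measured 2.41, 2.11 and 2.12 in level flight, and 1.59, 1.75 and 1.92 in midpoint tube A, the 1 comparison against level flight in which it was called (-0.46, interval -0.71 to -0.21). Tube A lay wholly below level flight, but the call was lost without level flight replicate 1 (adjusted p = 0.157) or tube A replicate 1 (adjusted p = 0.134) or 2 (adjusted p = 0.0828), and 5 of the 21 arrays carried the same PUB39 value, 2.01, to every deposited digit. In 37.6% of all named probe sets some value was repeated on at least 2 arrays. How many repeated a value on 5 arrays is not given here. In the other 5 later tubes PUB39 differed by -0.17 to -0.30 with no call, and all of them except parabola 10 end lay wholly below level flight.

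PUB26, a ligase gene for BIK1, ranged from 2.34 to 2.97 over the 21 arrays with a median of 2.66, and its tube means ran from 2.46 at parabola 10 end to 2.83 at parabola 1 end. PUB25, its close homologue, ranged from 1.90 to 2.72 with a median of 2.08, and its tube means from 1.98 in tube B to 2.38 at parabola 3 end. PUB19, of the abscisic acid response, ranged from 1.44 to 2.21 with a median of 1.75. These 3 genes differed from level flight by -0.07 to 0.30, -0.15 to 0.25 and -0.08 to 0.28, with lowest adjusted p of 0.270, 0.597 and 0.498. At parabola 1 end PUB26 lay above level flight on all 3 arrays without a call (0.30, interval 0.05 to 0.54, adjusted p = 0.270). PUB15 ranged from 1.53 to 2.09 and differed by -0.14 to -0.08 (lowest adjusted p = 0.746). PUB54 ranged from 1.56 to 2.07 and differed by -0.14 to 0.17 (lowest adjusted p = 0.641). No difference of these 5 genes from level flight passed the test.

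**Figure D3:**
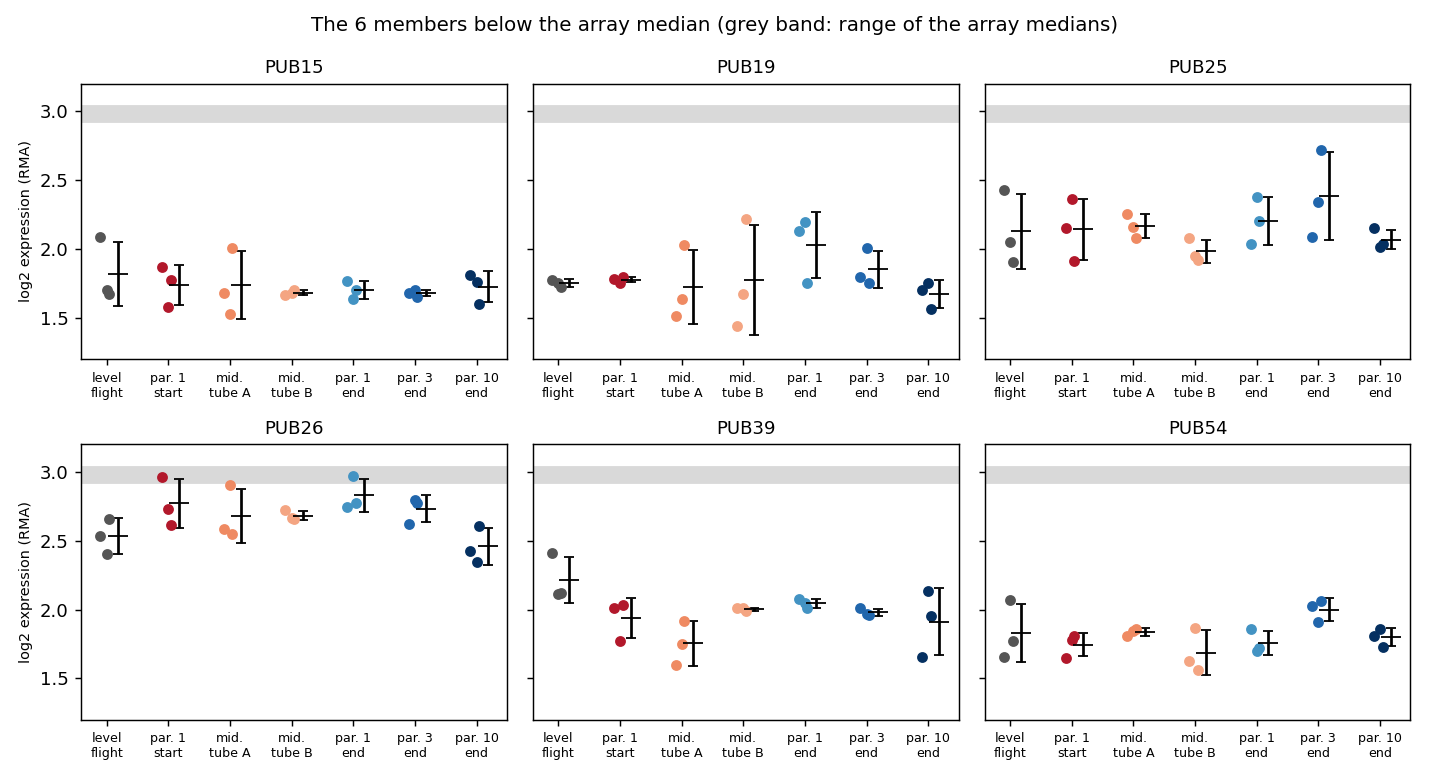
Log2 expression (RMA, vertical axes) of PUB15, PUB19, PUB25, PUB26, PUB39 and PUB54 in the 7 tubes (horizontal axes). Points are the 3 arrays of a tube with their mean and SD, and the grey band is the range of the 21 array medians, 2.92 to 3.04; each point lay below the median of its own array.

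The 4 brighter members moved together to varying degrees. Over the 7 tube means, PUB22 and PUB43 had Pearson r = 0.968 but Spearman rho = 0.607, PUB23 and PUB24 had r = 0.811 and rho = 0.821, and PUB22 and PUB24 had r = 0.553 and rho = 0.464. Deviations of single arrays from their tube mean were also positively correlated over the 21 arrays. Their r ran from 0.371 (PUB22 and PUB23) to 0.665 (PUB23 and PUB24). Their rho ran from 0.282 (PUB23 and PUB43) to 0.612 (PUB23 and PUB24). These correlations describe arrays that share tube, pool and normalization, and carry no test.

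Genes with the tube pattern most like each member were taken from the 411 or 412 genes whose tube means spanned at least 1 on the log2 scale. For PUB22 these were UGT73D1, a UDP-glycosyltransferase gene (r = 0.973 over 7 tube means), AT1G02360 (r = 0.964) and AT5G05190 (r = 0.959). For PUB23 they were APS3, an ATP sulfurylase gene (r = 0.982), pEARLI4 (r = 0.981) and AT3G56880 (r = 0.965). The pattern of PUB24 was most like those of AT5G35735 (r = 0.979), AT5G59490 (r = 0.973) and AT1G67920 (r = 0.971). PUB43 was most like AT1G02360 (r = 0.982), PUB22 (r = 0.968) and MSRB8, a methionine sulfoxide reductase gene (r = 0.946). AT1G02360 thus appears for both PUB22 and PUB43, and no gene is shared between the lists of PUB23 and PUB24.

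Genes for other parts of the ubiquitin pathway were examined alongside. Of 27 UBP genes, which encode proteases that take ubiquitin off substrates, 12 were measured and limma called none in the F test, against level flight or between tubes A and B. Over these 84 tests in 7 comparisons, 4 had an unadjusted p under 0.05, beside 13.0% of the tests of all named probe sets in the same comparisons, and the values lay between -0.23 and 0.28. Of 11 ATL genes, which encode RING-type ligases, 4 were measured and none was called, with 4 of 28 tests at an unadjusted p under 0.05, to be read against the same 13.0%. The ATL values lay between -0.61 (parabola 1 end) and 0.52 (parabola 10 end). Of a list of U-box loci, 18 were measured and 7 were called by the F test, beside 7.91% of all named probe sets. These 7 were PUB22, PUB23, PUB24, PUB43 and 3 of the 8 loci that RefSeq lists by a locus tag alone, which are not described here. MAC3A and MAC3B, U-box proteins of the splicing machinery, belong to the same list, were not called and lay between -0.15 and 0.26. The 46 proteasome genes listed for the pathway were not analysed here.

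**Figure D4:**
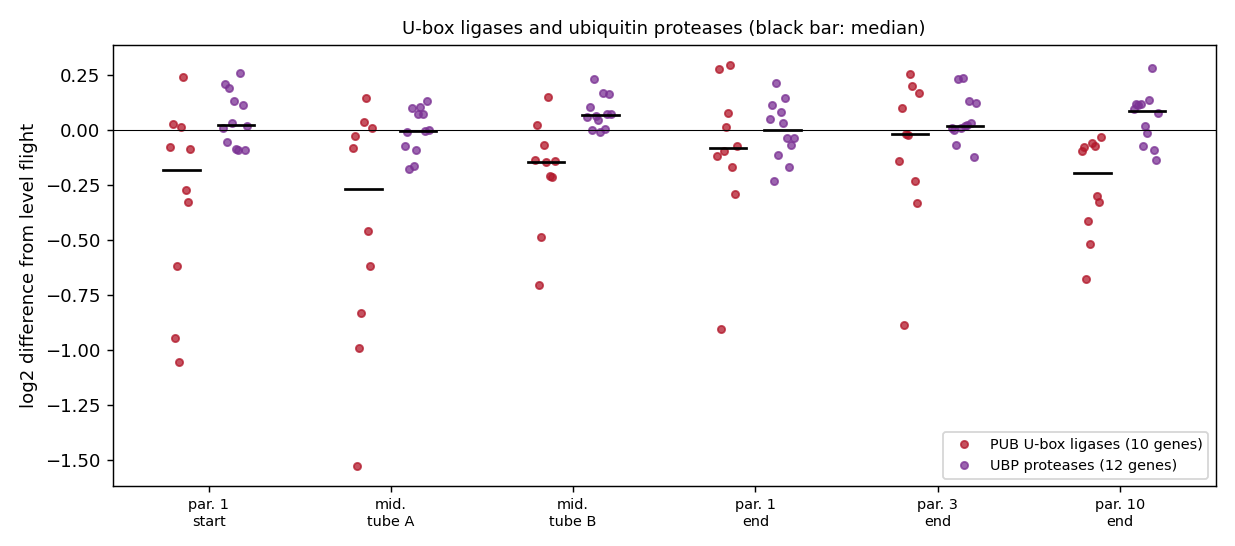
Log2 difference from level flight (vertical axis) of the 10 PUB genes and 12 UBP genes in the 6 later tubes (horizontal axis). Each point is a gene and black bars are medians. All plotted points below -0.30 are PUB genes, 2 of them below -1 (PUB24 at parabola 1 start and PUB22 in tube A). ATL genes are not plotted.

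Of 16 reported substrates and partners of these ligases, 2 were measured. BIK1, the immune kinase that PUB25 and PUB26 mark for degradation, averaged 7.12 ± 0.11 in tube A, 7.75 ± 0.14 in tube B and 7.65 ± 0.09 in level flight (SD, n = 3 each). BIK1 was lower in tube A than in level flight by -0.53 (adjusted p = 0.0182) and than in tube B by -0.64 (adjusted p = 0.0163), and it differed by -0.43 at parabola 1 start (adjusted p = 0.0770). RPN12a, a proteasome subunit reported as a target of PUB22 and PUB23, lay between -0.09 and 0.18 of level flight (F adjusted p = 0.418). BIK1 was called in tube A, where PUB22, PUB23, PUB24 and PUB43 were also called.

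Markers of leaf tissue were read on the same arrays, since roots were dissected from shoots after fixation. Of 15 leaf markers 5 were measured and 1, PORB, was called by the F test, all 5 with means above the array median. All 5 had values above 0 against level flight at parabola 1 start, in both midpoint tubes and at parabola 10 end. Their medians were 0.30 at parabola 1 start, 0.62 in tube A, 0.38 in tube B, 0.19 at parabola 1 end, 0.23 at parabola 3 end and 0.47 at parabola 10 end. PORB, a chlorophyll synthesis enzyme gene, was the 1 marker called against level flight. It was higher at parabola 1 start (1.23, adjusted p = 0.00523) and in tube A (1.19, adjusted p = 0.00535). On the level flight arrays PORB measured 2.43, 2.52 and 2.61, each below the median of its own array. Whether it was above background there was not tested. The summed level of the 5 on the linear scale ran from 62.4 to 77.0 in level flight, 82.8 to 93.6 at parabola 1 start, 80.6 to 107 in tube A, 73.7 to 108 in tube B, 68.8 to 85.4 at parabola 1 end, 70.0 to 90.9 at parabola 3 end, and 82.1 to 104 at parabola 10 end. Their part in the falls of the PUB genes was not tested. Between tubes A and B the leaf median was 0.24, with 3 of 5 above 0 and no marker called. Of 14 root markers, the root hair gene EXPA7 alone was measured, and it was not called (F adjusted p = 0.623).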

How the data were processed

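Total RNA of whole roots, 100 ng per array, was labelled for 21 Affymetrix AraGene 1.0 ST arrays, per the labels' protocols. The deposited log2 values were made by the authors with RMA. The submitters' processing notes name RMA, oligo, limma, R 4.0.0 and TAIR10. RMA hides any change common to every transcript. No value was missing, and no value column was left out.

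Of the probe sets, 17481 had a gene in the platform annotation, 16722 of them with 1 gene, and symbols of 16574 were updated through RefSeq. Without a filter on brightness, 7 group means were fitted with 14 residual degrees of freedom by the lmFit and eBayes functions of limma (3.58.1; R 4.3.3 and the data.table package, 1.17.8). Tests were two-sided, and each comparison had its own Benjamini-Hochberg adjustment, at a threshold of 0.05. The fit was tested on simulated data.

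The members and lists were chosen with earlier results of these data known. Every member is named, with up to 4 called genes of each list or family per comparison, and the 3 genes most like each member called by the F test. MAC3A, MAC3B and genes named with uncalled values were added for context. Promoter motifs and 3 probe sets pairing a PUB gene with other genes were not used here.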

Additional observations from a re-analysis of the deposited data

Results flagged for a closer look

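Tubes A and B were fixed at the same midpoint, and the direct test between them called 3 members. In that fit, their differences from the shared level flight arrays were unequal in the 2 tubes. PUB22 differed by -0.82 (limma adjusted p = 0.00753), PUB24 by -0.76 (adjusted p = 0.0472) and PUB23 by -0.50 (adjusted p = 0.0458), lower in tube A on 3 of 3 arrays each. BIK1 was also lower in tube A (-0.64, adjusted p = 0.0163). The tubes were operated by different crew members, and the part of the operator, the tube and the root pools in these differences cannot be told apart.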

How the results depend on the processing

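Of 1988 recomputed differences of single members, none reversed a call, 336 of 405 recomputed calls were kept, and 3 uncalled values passed. Of 1583 recomputed uncalled values, 47 changed sign. Counts of members called stayed within 1.5 times those reported with a variance trend and robust estimation, the brightness filter, array weights and cyclic loess. With the tube as a random block, tubes A and B formed a single midpoint stage. The counts were then 0 at parabola 1 start and at the ends of parabolas 1, 3 and 10, and 0 in the F test. With 7 tube means (chosen after seeing the data), the count was 3 in tube A against level flight, 0 between tubes A and B and 5 over the 21 pairs. Its correlation rests on 1 pair of tubes, A and B, so the 0 between these tubes is no separate check. With only the arrays compared, the counts were 3 in tube A against level flight and 0 between tubes A and B. With all probe sets tested they were 0 at parabola 10 end and 1 between tubes A and B. The replicate block gave 1 member between tubes A and B (PUB22) and 24 calls over the 21 pairs, and no other member count moved by over 1.5 times. Same-numbered arrays correlated between -0.106 and 0.153 in their deviations (63 pairs, 3 over 0.1), and 8 of 21 arrays correlated best with their own number, so the arrays share only a number. Leaving out 1 array gave 3 to 3 members at parabola 1 start, 3 to 5 in tube A, 0 to 1 in tube B, 1 to 1 at parabola 1 end, 0 to 1 at parabola 3 end and at parabola 10 end, 0 to 4 between tubes A and B, 3 to 4 in the F test and 17 to 32 over the 21 pairs, lowest without tube A replicate 2. Averaging the probe sets of a gene could not change a value, since each member has 1. Signal over background is not given by the deposited values, which limits the 6 dim members.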
